A study of Rattus norvegicus with 12 samples.

Results

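The comparison set 3 RNA sequencing libraries of T cells from the CNS parenchyma, the tissue of the brain and spinal cord itself, against 3 from the cerebrospinal fluid (CSF). The libraries were chosen by their titles, CNS parenchyma 1 to 3 and CSF 1 to 3, and are 6 of 12 in the series. The cells were CD4+ Tmbp cells, T cells that recognise a protein of the myelin sheath, myelin basic protein. They expressed green fluorescent protein, came from wild type rats of the Lewis strain with experimental autoimmune encephalomyelitis, and were sorted by that fluorescence in the cold. The remaining libraries, 3 from blood and 3 from spinal cord meninges, hold the same kind of cell. They entered the count filter, the scaling and the estimate of the spread, and gave further levels. The labels give no age, no way or day of disease induction and no region of the parenchyma, and do not say whether the numbered libraries came from separate or pooled animals, so that a p-value here speaks only of the variation among the libraries at hand, which may be technical.

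Experimental autoimmune encephalomyelitis is an inflammation of the CNS driven by T cells that recognise myelin. Such T cells leave the blood, gather at the vessels of the meninges and meet cells there that can present myelin antigen. From the meninges they can enter the tissue, or come loose into the CSF that bathes it. T cells that have recognised antigen in tissue are known for producing cytokines and chemokines and for changing their adhesion molecules and metabolism. The comparison asks which genes part the cells in the tissue from those in the fluid.

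The genes of these data are known only by Ensembl rat identifiers. Of the identifiers, 0 matched a gene name in the reference table used here, so neither the T cell identity of the libraries nor RNA of other cells, such as glia or macrophages, was checked against marker genes, and their part in any difference below was not tested. Results are therefore given by size of change and by abundance, with 2 identifiers in each direction described in full. In bulk RNA, fewer cells of a type and less RNA per cell cannot be told apart.

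Total gene counts were 15361310 to 17965790 in the parenchyma libraries and 14279851 to 22056664 in the CSF libraries, and 11498 of 26405 genes had enough counts to be tested. Of the 14907 genes not tested, 8201 had 0 counts in all 6 libraries, and none of the others had a mean above 1.30 CPM in either group. CPM is a gene's count after every library is brought to one common total. Within a group, 2 libraries differed by a root mean squared 0.35 ± 0.04 log2 units over the tested genes (SD over 6 pairs), and between groups by 0.65 ± 0.06 (9 pairs). CSF replicate 2 lay 0.38 and 0.40 from the other CSF libraries, which lay 0.28 from each other, and it was the farthest CSF library from each of the 3 parenchyma libraries. Some counts below are given with their value without it. A count printed without such a value may depend on it too.

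About as many genes were higher as lower in the tissue cells, but among differences beyond 4-fold 198 were gains and 8 were losses. Relative to CSF cells, 1970 genes (17.1% of those tested) were higher in parenchymal cells and 1789 (15.6%) were lower, at an adjusted p under 0.05 in edgeR's quasi-likelihood test with Benjamini-Hochberg adjustment. Together they were 32.7% of the genes tested. The median fold among them was 1.44 for the genes higher and 1.37 for the genes lower. Without CSF replicate 2, 1652 genes were higher and 1440 lower. The median log2 fold change of all genes tested was -0.0048. The scaling of the libraries is built to bring this centre near 0, so it is no finding about the cells. With libraries scaled by size alone it was -0.030, and 1765 genes were higher and 2039 lower.

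The balance between gains and losses changed with the size of the difference. Under 1.5-fold, 1088 called genes were higher and 1226 lower in parenchyma, and between 1.5-fold and 2-fold the counts were 393 and 422. Between 2-fold and 4-fold 291 were higher and 133 lower, and beyond 4-fold 198 and 8. Genes called and more than 2-fold higher were thus 489 (4.25% of those tested), and those more than 2-fold lower were 141 (1.23%). The imbalance beyond 2-fold held with the libraries scaled by their size alone, where the counts beyond 2-fold were 472 and 162, and with DESeq2, where they were 473 and 131. Without CSF replicate 2 they were 460 and 94. The small count beyond 4-fold lower moved between 5, without CSF replicate 2, and 14, without parenchyma replicate 1. It was 13 without parenchyma replicate 3 or CSF replicate 1.

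**Figure D1:**
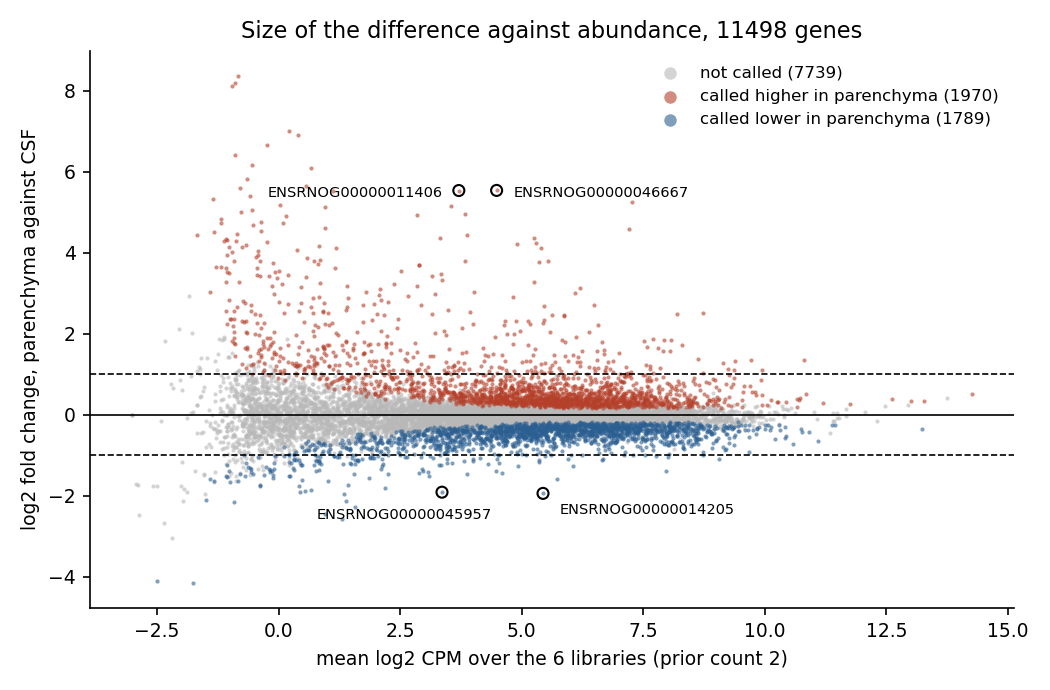
Each point is 1 of 11498 genes, with its mean log2 CPM over the 6 libraries on the horizontal axis and its log2 fold change of parenchyma against CSF on the vertical axis; dashed lines mark 2-fold, and rings mark the 4 genes described in full. Points called higher lie far above the upper line at low and at middle abundance, while points called lower that lie far below the lower line are few and at low abundance.

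Most genes called in either direction separated the libraries completely. Of the 1970 genes higher in parenchyma, 1861 had all 3 parenchyma libraries above all 3 CSF libraries in CPM, and of the 1789 lower, 1756 had all 3 below. Over all genes tested, called or not, 20.0% had the parenchyma libraries all above and 23.7% all below, 43.7% in all. Libraries with the same number tended to deviate from their group together. Read as pairs, all 3 numbers gave the direction of the fit for 487 of the 489 genes more than 2-fold higher and for 140 of the 141 lower. A difference beyond 2-fold in each of the 3 pairs was seen for 330 and 42 of them. The median log2 difference of the 489 genes was 1.59, 1.77 and 1.56 in pairs 1, 2 and 3, and that of the 141 genes was -1.14, -1.36 and -1.03. In both sets the pair numbered 2 was the farthest apart. These counts describe genes chosen on the same libraries.

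The smallest difference called was larger among scarce genes and varied little above 10 CPM. CPM takes no account of gene length, so the classes below rank genes by reads and not by molecules. Of 925 genes with a mean under 1 CPM over the 6 libraries, 14.3% were called, and the smallest called log2 difference was 0.78. Of 2591 genes at 1 to 10 CPM 25.4% were called, of 5621 at 10 to 100 CPM 34.5%, of 2289 at 100 to 1000 CPM 43.3%, and of 72 above 1000 CPM 52.8%. In these classes the smallest called log2 difference was 0.29, 0.17, 0.16 and 0.20 in size. The median standard error of the log2 fold change declined by class from 0.44 under 1 CPM through 0.22 and 0.099 to 0.081 at 100 to 1000 CPM, and was 0.084 above 1000 CPM. The median absolute log2 fold change of the called genes went the same way, from 1.74 under 1 CPM to 0.92, 0.43, 0.39 and 0.36. Small differences in scarce genes were therefore not called. The parts of sequencing depth and of variation between libraries in this were not tested.

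The excess of gains beyond 2-fold and 4-fold held among abundant genes, where the precision was best. Of the genes with at least 10 CPM over the 6 libraries, 55 were called and more than 4-fold higher in parenchyma by edgeR. More than 4-fold lower were 0. DESeq2 gave the same counts, and at edgeR's unadjusted p under 0.05 the count lower was also 0. Leaving out single libraries gave 50 to 59 higher and 0 to 2 lower. Past 2-fold, the same genes were 181 higher and 31 lower. The latter count was 20 without CSF replicate 2 and 49 without parenchyma replicate 3. At 100 CPM or more, 52 genes were more than 2-fold higher and 6 more than 2-fold lower. With at least 10 CPM in both groups, 133 of 7768 genes were more than 2-fold higher and 22 more than 2-fold lower, so that the imbalance was also seen where both levels were well measured.

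Among the scarce genes tested, more were called higher than lower beyond 2-fold, with a limit set by the count filter. Under 1 CPM over the 6 libraries, 93 genes were called and more than 2-fold higher and 34 more than 2-fold lower, and at 1 to 10 CPM the counts were 215 and 76. Among the 489 genes more than 2-fold higher, 141 had a mean under 0.5 CPM in CSF. Among the 141 more than 2-fold lower, 31 had a mean under 0.5 CPM in parenchyma. Scarce genes could pass the count filter only through the group where they were high, or through blood or meninges. The counts in this paragraph therefore add no support to the imbalance. They are also no measure of how often genes appear or vanish.

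**Figure D2:**
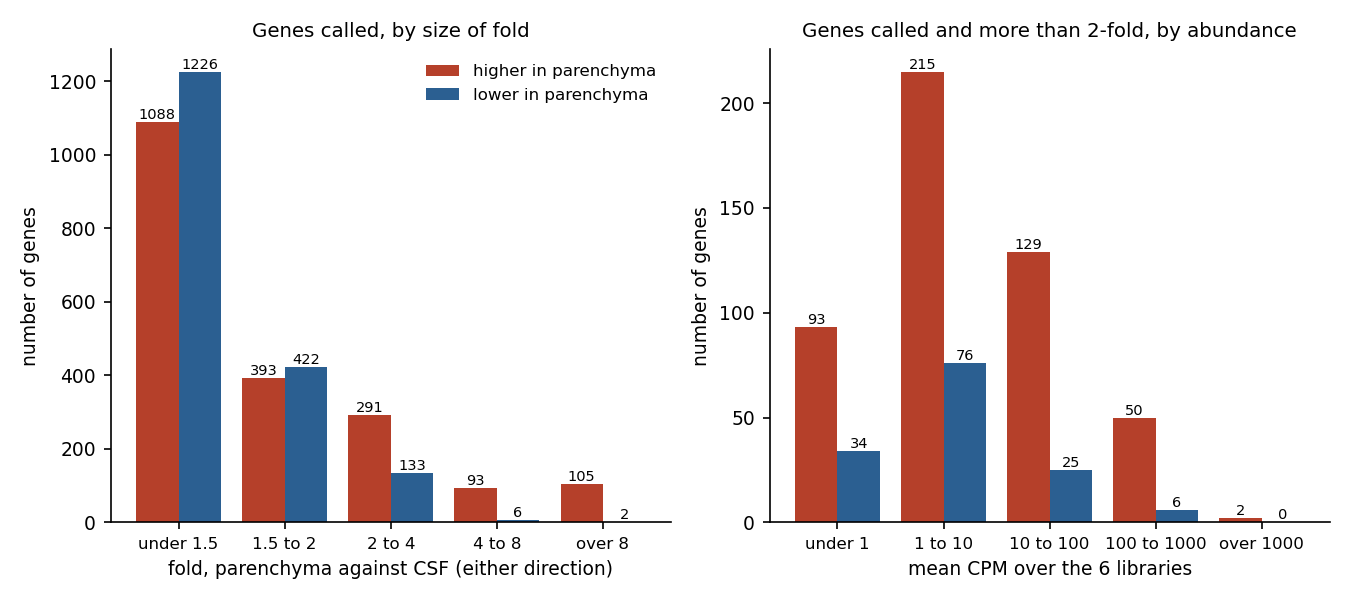
Left, the number of genes called higher (red) or lower (blue) in parenchyma than in CSF by size of fold; right, the number called and more than 2-fold different, by mean CPM over the 6 libraries. The bars are close to equal up to 2-fold and part beyond it, and red bars are taller in every abundance class on the right.

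In terms of reads, the gains were concentrated in fewer genes than the losses, although more genes were higher than lower. Summed over called genes, the mean level rose by 77252 CPM in the genes higher and was 65822 CPM less in the genes lower. Every library has the same CPM total, so these sums are tied to each other and their near balance is no finding. They and the shares below rest on group means. The 84 genes with the largest gains made 50% of the first sum, and 151 genes were needed for 50% of the second. The 10 largest gains made 23.0% of the gained CPM and the 10 largest losses 12.3% of the lost CPM. The single largest gain was 6471 CPM and the single largest loss 2488 CPM.

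The 489 genes more than 2-fold higher took 1.16%, 1.01% and 1.17% of gene counts in CSF libraries 1, 2 and 3, and 3.34%, 3.48% and 3.12% in the parenchyma libraries. The 141 genes more than 2-fold lower took 0.325%, 0.410% and 0.330% in CSF and 0.142%, 0.157% and 0.162% in parenchyma. CSF replicate 2 was the lowest CSF library for the first set and the highest for the second. In both sets it thus lay on the far side from parenchyma. For the first set blood libraries, at 0.878% to 1.08%, overlapped CSF libraries, and meninges libraries, at 1.91% to 2.12%, lay between CSF and parenchyma without overlap. For the second set blood libraries, at 0.471% to 0.481%, were above CSF, and meninges libraries, at 0.255% to 0.298%, lay between CSF and parenchyma. Both sets were chosen on the CSF and parenchyma libraries, which by itself favours a meningeal share between these sites. Smaller differences were carried by many reads. In CSF the 1088 genes called under 1.5-fold higher held 14.8% ± 0.959 of all gene counts (SD, n = 3), and in parenchyma 18.7% ± 0.256. The 1226 genes called under 1.5-fold lower held 19.4% ± 0.740 and 14.9% ± 0.520.

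**Figure D3:**
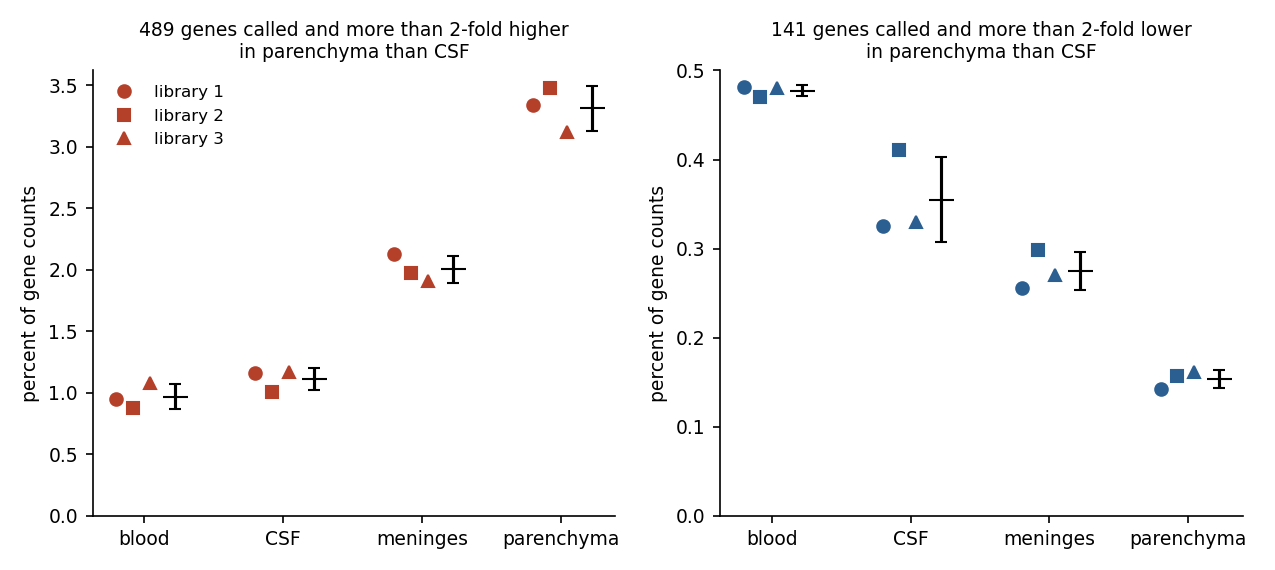
Percent of gene counts taken in each of the 12 libraries by the 489 genes more than 2-fold higher (left) and the 141 more than 2-fold lower (right) in parenchyma than in CSF; symbols mark the library number, and bars the mean and SD of 3 libraries. Parenchyma lies at 3.12% to 3.48% on the left, above all other libraries, and at 0.142% to 0.162% on the right, below all others; the genes were chosen on the CSF and parenchyma libraries.

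The sets below hold only called genes whose CSF and parenchyma libraries did not overlap. The 15 largest rises among such genes with at least 10 CPM in parenchyma spanned log2 fold changes of 3.81 to 5.54, with a median of 4.58. Their mean levels were 0.291 to 31.0 CPM in CSF and 14.4 to 963 CPM in parenchyma. The mean meningeal level of all 15 lay above the CSF mean and below the parenchyma mean. The 15 largest falls with at least 10 CPM in CSF were much smaller, at log2 fold changes of -1.94 to -1.24 with a median of -1.41. Their levels were 11.97 to 403 CPM in CSF and 4.36 to 153 CPM in parenchyma. The mean meningeal level of all 15 falls lay above the parenchyma mean, and for 4 of them it lay above the CSF mean as well. Rises and falls were chosen for a large gap between CSF and parenchyma, which by itself favours a meningeal level between these sites. The smallest of the 15 rises was thus larger in size than the largest of the 15 falls. The 10 most abundant genes more than 2-fold higher stood at 723 to 2841 CPM in parenchyma and rose by a median log2 fold change of 1.33, the largest at 5.24. The 10 most abundant genes more than 2-fold lower stood at 85.1 to 770 CPM in CSF and fell by a median of 1.11 on the log2 scale.

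The genes described next were chosen among called genes whose CSF and parenchyma libraries did not overlap. That separation is therefore given by the choice. ENSRNOG00000046667 had the largest rise among such genes with at least 10 CPM in parenchyma. Its level was 3.08, 2.66 and 4.20 CPM in CSF libraries 1 to 3 and 203, 127 and 116 CPM in parenchyma libraries 1 to 3. Parenchyma replicate 1 was the highest of its group. In edgeR's test the rise was 5.54 on the log2 scale with an SE of 0.24 (adjusted p = 1.56e-08), on 182 counts in CSF and 7152 in parenchyma. The ratio of summed counts was 45.7, with an exact 95% binomial interval of 39.5 to 53.3 that covers counting error only. Read as pairs, the log2 differences were 6.02, 5.54 and 4.76. Meninges libraries held 140, 112 and 129 CPM, and the difference between parenchyma and meninges, 0.28 on the log2 scale (SE 0.18), had an adjusted p of 0.353 in the same edgeR fit. Blood libraries held 8.68, 6.31 and 7.84 CPM, and CSF lay below blood with a log2 fold change of -1.20 (SE 0.26, edgeR adjusted p = 0.00297). This gene was therefore high in both solid sites and lowest in the fluid. Parenchyma and CSF libraries enter several of these contrasts, which are not independent of each other.

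ENSRNOG00000011406 showed a rise of nearly the same size with another order of sites. Its level was 2.36, 0.639 and 3.29 CPM in CSF and 69.3, 83.0 and 122 CPM in parenchyma. CSF replicate 2 was the lowest of the CSF libraries, on 13 counts, against 52 and 47 in the others. In edgeR's test it rose by a log2 fold change of 5.54 with an SE of 0.36 (adjusted p = 3.24e-07), on 112 counts in CSF and 4533 in parenchyma, and 5.09 without CSF replicate 2. The ratio of summed counts was 47.1, with a counting interval of 39.0 to 57.3. Meninges libraries, at 27.4, 19.1 and 32.4 CPM, lay between CSF and parenchyma without overlap, and below parenchyma by a log2 fold change of 1.85 in the test (SE 0.27, adjusted p = 0.00103). Blood libraries held 0.287, 0.0573 and 0.0754 CPM, on 7 counts in all. Blood libraries 2 and 3 lay under the level of 3 counts, 0.172 and 0.226 CPM. CSF against blood gave a log2 fold change of 3.74 (SE 0.87, edgeR adjusted p = 0.00453).

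ENSRNOG00000014205 had the largest fall among called genes with at least 10 CPM in CSF and libraries that did not overlap. Its level was 88.0, 103 and 64.4 CPM in CSF and 18.5, 23.3 and 23.7 CPM in parenchyma. In edgeR's test its log2 fold change was -1.94 with an SE of 0.20 (adjusted p = 1.30e-05), on 4951 and 1069 counts. The summed counts gave a ratio of CSF to parenchyma of 3.98, with a counting interval of 3.72 to 4.26. Blood libraries held 276, 311 and 295 CPM and meninges libraries 73.3, 111 and 71.8 CPM. The level was highest in blood, and CSF lay below blood by a log2 fold change of -1.76 (SE 0.18, edgeR adjusted p = 1.02e-05). Meninges and CSF libraries overlapped, with means of 85.4 and 85.1 CPM. Parenchyma against meninges gave a log2 fold change of -1.91 (SE 0.20, edgeR adjusted p = 0.000121), so this fall did not part both solid sites from the fluid.

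ENSRNOG00000045957 had the next largest fall and rested more on a single library. Its level was 13.6, 34.1 and 13.7 CPM in CSF and 4.75, 6.18 and 5.29 CPM in parenchyma. CSF replicate 2 held 694 of the 1190 CSF counts. In edgeR's test its log2 fold change was -1.91 with an SE of 0.45 (adjusted p = 0.00592), and -1.30 without CSF replicate 2 (adjusted p = 0.0317). Read as pairs, the log2 differences were -1.46, -2.42 and -1.34. Library 2 was also the highest in meninges, at 19.4 CPM against 7.80 and 10.3 CPM, and in parenchyma, but not in blood, where the libraries held 6.49, 12.5 and 18.8 CPM. The adjusted p was 0.134 between parenchyma and meninges and 0.172 between CSF and blood, and with the library number as a replicate block 0.0211 and 0.0313.

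**Figure D4:**
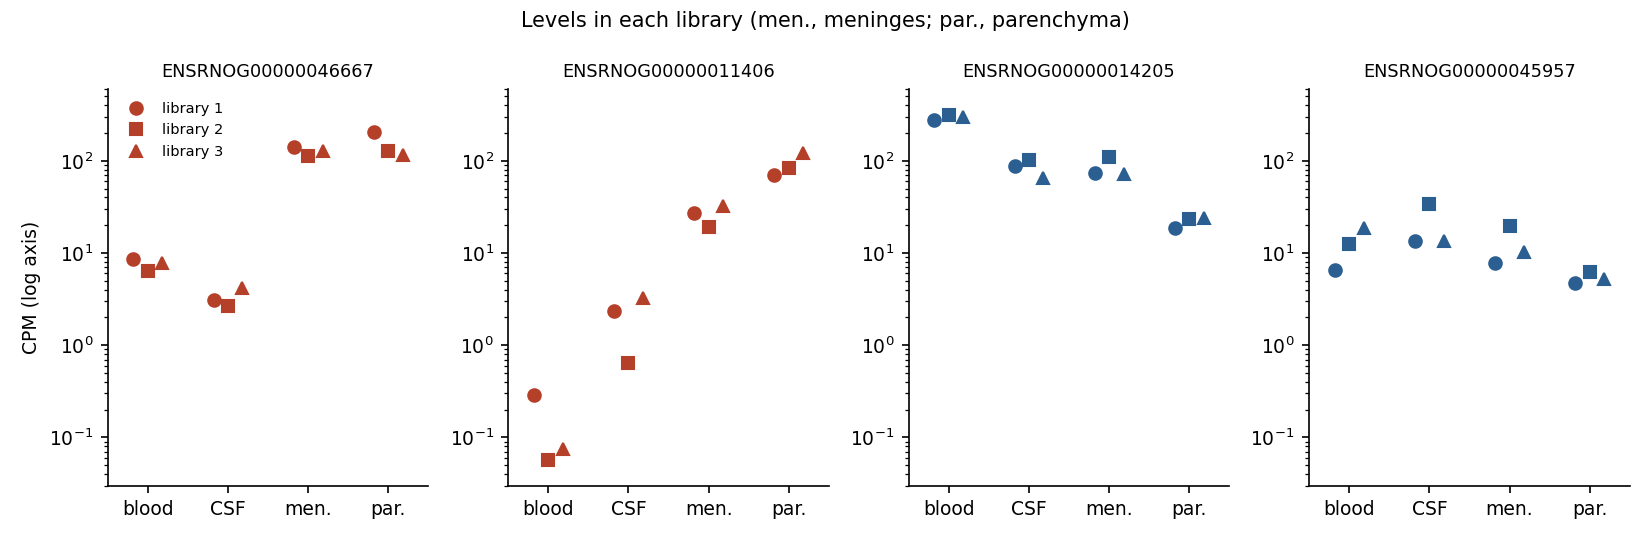
CPM on a log axis in each of the 12 libraries, with symbols for the library number. Red panels show the 2 genes with the largest rises from CSF to parenchyma, and blue panels the 2 with the largest falls. Called genes with at least 10 CPM in the higher group and libraries that did not overlap were eligible. In the red panels meninges (men.) and parenchyma (par.) lie high and CSF low, and in the panel of ENSRNOG00000045957 the square of CSF library 2 stands above the other CSF libraries.

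The genes that part tissue from fluid were then read in the other 6 libraries, those of meninges and blood. Meninges and parenchyma are both solid sites, and the contrast of meninges against blood shares no library with that of parenchyma against CSF. All 12 libraries, however, set the count filter, the scaling and the spread, so meninges and blood had a part in which genes were tested and called. RNA of other cells was not checked in either solid site, so its part in what both contrasts share was not tested. In meninges against blood 1908 genes (16.6% of those tested) were higher in meninges and 2187 (19.0%) lower. Of the 489 genes more than 2-fold higher in parenchyma than CSF, 266 (54.4%) were also higher in meninges than blood, 25 were lower and 198 were not called. Their median log2 fold change between meninges and blood was 0.99, against -0.011 over all genes tested. The 266 genes were 13.9% of all genes higher in meninges than blood. Of the 141 genes more than 2-fold lower in parenchyma, 60 (42.6%) were lower in meninges than blood and 14 (9.93%) higher, with a median log2 fold change of -0.48. The 60 genes were 2.74% of all genes lower in meninges than blood. Without CSF replicate 2 the counts of 266 and 60 were 259 and 45.

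The shares were not in strict order of size. Among the genes higher in parenchyma, 51.5% of the 198 more than 4-fold higher were higher in meninges than blood. Of the genes called 1.5-fold to 2-fold higher in parenchyma, 43.3% were higher in meninges than blood, and of those called under 1.5-fold higher, 28.7%. For the genes lower in parenchyma the shares lower in meninges than blood were 43.8% and 36.1%. Among the 7739 genes not called between parenchyma and CSF, 12.7% were higher and 17.7% lower in meninges than blood. Of the 15 largest rises with at least 10 CPM, all 15 were also called higher in meninges than blood. Of the 15 largest falls, 8 were called lower in meninges than blood, 2 higher and 5 not called.

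**Figure D5:**
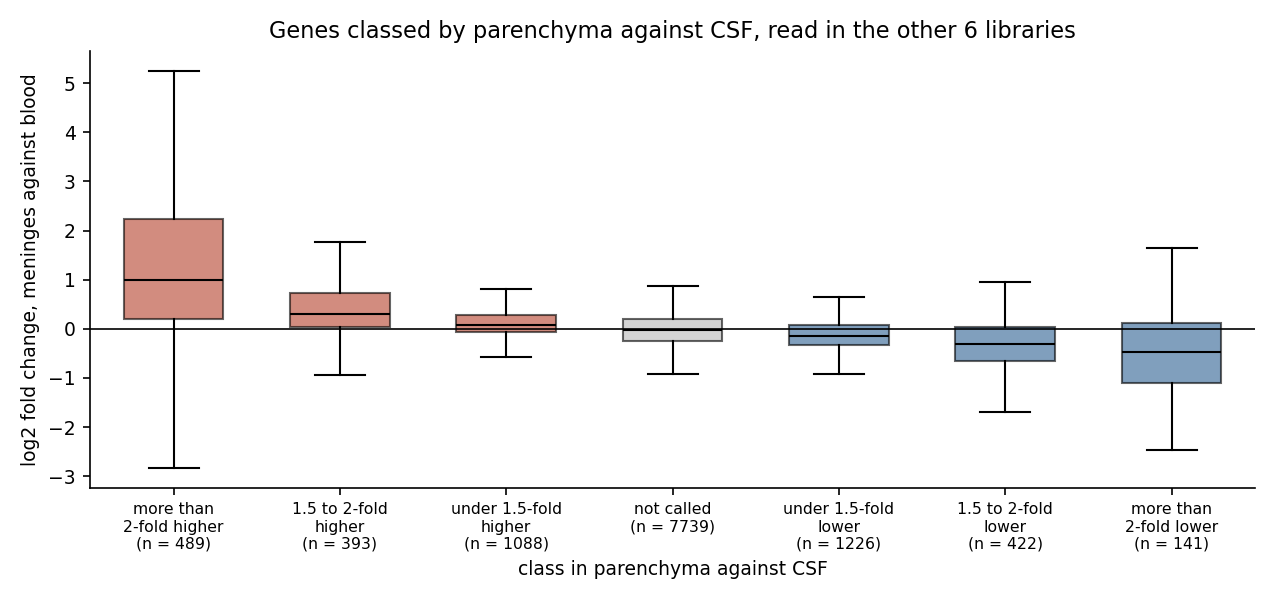
Log2 fold change of meninges against blood for genes classed by their change between parenchyma and CSF; boxes span the quartiles with the median as a line, whiskers reach 1.5 times the box length and points beyond are not drawn. The median steps from 0.99 in the genes more than 2-fold higher through -0.023 in the genes not called to -0.48 in those more than 2-fold lower.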

How the data were processed

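RNA of sorted CD4+ Tmbp cells was sequenced from libraries made with an Illumina TruSeq protocol for messenger RNA, per the labels' protocols. The deposited files hold raw read counts per Ensembl rat gene, not normalized. Tools listed in the submitters' processing notes are HTSeq, STAR, SAMtools, DESeq2 and CASAVA 1.8.2, without their roles. Build, annotation and strand setting were not stated in the sources used. How reads of antisense genes and near-identical copies were assigned is therefore uncertain. The 5 summary lines that close each file were kept out. Reads aligned to several places were 35.8% to 42.2% of all entries in the 6 libraries compared, and those outside any gene 18.6% to 21.9%. Those set aside as ambiguous were 0.076% to 0.090%.

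The test was run with edgeR 4.0.16 under R 4.3.3: filterByExpr, TMM scaling and 1 quasi-likelihood fit of all 12 libraries with the compartment as the only term. Contrasts were two-sided, and a gene was called at a Benjamini-Hochberg adjusted p under 0.05 over all 11498 genes tested. The common biological coefficient of variation was 10.7%. CPM divides a count by the library's total gene counts, and the upper limit for a count of 0, taken as 3 counts, was 0.136 to 0.210 CPM in the 6 libraries. The functions were tested on simulated counts. DESeq2 1.42.0 was an alternative, beside other scalings, filters, thresholds, a replicate block and leaving out each library.

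The genes described in full had the 2 largest rises and the 2 largest falls among called genes with at least 10 CPM in the higher group and libraries that did not overlap. The 33 planned gene lists need names and could not be used: the reference table supplied has an Ensembl identifier in 0 of 47357 rows. Comparison, rules and lists were chosen with earlier results of these data known. Same-numbered parenchyma and CSF libraries deviated together from their group means over genes, with correlations of 0.276, 0.384 and 0.284, so the numbers were read as pairing them. The labels do not say what a number shares.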

Additional observations from a re-analysis of the deposited data

How the results depend on the processing

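The 4 genes described by identifier kept their direction under all 16 alternatives, and past the threshold too except ENSRNOG00000045957, whose adjusted p was 0.0613 in edgeR's test against a 1.5-fold change. Its adjusted p ran from 8.05e-07 to that value, leaving aside the fit without a filter, whose p-values are not comparable. Alternatives for the counts higher and lower beyond 2-fold, for those beyond 4-fold and for meninges against blood were chosen after seeing the data; those for all genes called and all beyond 2-fold were not. At an adjusted p under 0.01, 2276 genes were called, 1255 higher and 1021 lower, with 85 more than 2-fold lower. In meninges against blood, 11 of the genes more than 2-fold higher in parenchyma were then lower, and 6 of those more than 2-fold lower were higher and 34 lower. Beyond 1.5-fold, 478 genes were called, 396 higher (82.8%) and 82 lower, with 415 past 2-fold and 59 of them lower; meninges against blood then gave 153 higher and 3 lower of the first set, and 5 higher and 15 lower of the second. Without the filter 338 genes were more than 4-fold higher and 15 lower, and 41 of the genes more than 2-fold higher were lower in meninges than blood. The count of genes more than 4-fold lower was 5 with a filter of 1 CPM, with the 6 libraries alone and with the replicate block on these 6. A stricter threshold gives fewer genes by construction; for the other shifts the cause was not tested.

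Leaving out each library gave 3050 to 3488 genes called, 452 to 506 more than 2-fold higher, 94 to 154 more than 2-fold lower and 5 to 14 more than 4-fold lower. With the replicate block on 12 libraries 4965 genes passed, 2498 of them higher and 2467 lower, with all 3759 included, and 508 were more than 2-fold higher and 164 more than 2-fold lower. In meninges against blood 301 of the former were then higher and 32 lower, and 74 of the latter lower and 17 higher. It moved none of these counts by over 1.5 times, and of the contrasts given for the 4 genes it changed only the 2 calls of ENSRNOG00000045957 printed with it. With libraries scaled by size alone 46.4% of called genes were higher, against 52.4%. No scaling moved the median log2 fold change of all genes by more than 0.1.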
